A study of Mus musculus with 3 samples.

Results

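The 40 genes described here encode the machinery of mitosis and chromosome segregation. They were chosen by name from the 27389 genes on the array, with no rule on their values but with earlier results of these data known. Every one of the 40 was measured at every time, through 61 of their 73 probes. Of the other probes, 9 were not well above background on any array and 3 were so on some arrays. Gene names on this array are old, so 6 members were found only under an older name, Cdk1 as Cdc2a among them. The study treated MigA9 cells with 2.5 µM DB818 for 6, 12 or 24 h and set each treated RNA, labelled Cy5, against RNA of untreated MigA9 cells, labelled Cy3, on 1 two-colour Agilent mouse array at each time. MigA9 is a mouse hematopoietic cell line transformed by the homeobox factor Hoxa9, so treated and untreated cells both carry that transformation, and both grew in RPMI-1640 with 10% FCS and 1% of medium conditioned with GM-CSF. DB818 is a small molecule that binds the minor groove of DNA and has been used in work on blocking HOXA9. The labels describe the untreated cells as not exposed, with no time, so whether 1 untreated RNA or 3 were hybridised is not known. All samples come from 1 line, no time was repeated and the dyes were never swapped.

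As background, the transcripts of mitotic genes are low in G1 and rise through G2, when complexes built on the MuvB core, with B-Myb and FoxM1, act at their promoters. Cyclin B with Cdk1 drives entry into mitosis, condensins and topoisomerase II shape and untangle the chromosomes, and kinesins and kinetochores attach and align them. The spindle assembly checkpoint holds back the anaphase promoting complex until all chromosomes are attached, and the central spindle then directs cytokinesis. In a dividing transformed line such as MigA9 these genes are expected to be transcribed, and their level in bulk RNA follows both the share of cells in G2 and M and the RNA in each such cell, which cannot be told apart here.

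The promoters show what most members share beyond their function. RefSeq windows (GRCm38.p6) from 250 bases before to 50 after the start were at hand for 34 of the 40. The letters TTTGAA on either strand, the core of the cell cycle genes homology region (CHR) that MuvB complexes bind, were in the windows of 25 of these 34 members (73.5%), against 14.3% of 28 DNA replication genes and 20.2% of all 27025 genes with a window. CCAAT on either strand, the box bound by NF-Y, was in 79.4% of the members, against 64.3% of the replication genes and 41.1% of all genes. Both were in 67.6%, against 10.7% and 7.97%. The 2 motifs can overlap by at most 1 end letter. Positions were counted in every window, and 3 members had 2 windows, so a site in both counts more than once. So counted, 25 of 36 TTTGAA matches lay within 50 bases of the start. Of 63 CCAAT matches 61 lay upstream of it, and the median position of all 63 was 74 bases before it. Most of each window is upstream, and positions were not counted over all genes. The stretches below run 5′ to 3′ from 150 bases before the start to 30 from it, with TTTGAA and CCAAT on either strand in capitals. They are shown for the 8 members with a window whose mean ratio rose (Smc2, Top2a, Ccnb1, Cdc20, Cenpf and Pttg1) or fell (Aurka and Kif23), so that their promoters can be compared with their response, and for Ccnb2, whose ratio did not pass the test.
Smc2 (chr4:52439071-52439250, plus strand): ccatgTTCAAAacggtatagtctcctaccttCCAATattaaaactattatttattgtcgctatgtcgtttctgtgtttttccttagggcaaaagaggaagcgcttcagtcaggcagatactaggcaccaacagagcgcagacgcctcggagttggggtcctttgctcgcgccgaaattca
Top2a (chr11:99024160-99024339, minus strand): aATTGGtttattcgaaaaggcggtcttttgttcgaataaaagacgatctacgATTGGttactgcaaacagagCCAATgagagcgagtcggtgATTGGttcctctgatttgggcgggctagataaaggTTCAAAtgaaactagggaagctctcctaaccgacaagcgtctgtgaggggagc
Ccnb1 (chr13:100786457-100786636, minus strand): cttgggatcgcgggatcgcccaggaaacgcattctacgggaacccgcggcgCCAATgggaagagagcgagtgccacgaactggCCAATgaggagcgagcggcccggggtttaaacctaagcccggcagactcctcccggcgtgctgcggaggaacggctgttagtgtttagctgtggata
Cdc20 (chr4:118437314-118437493, minus strand): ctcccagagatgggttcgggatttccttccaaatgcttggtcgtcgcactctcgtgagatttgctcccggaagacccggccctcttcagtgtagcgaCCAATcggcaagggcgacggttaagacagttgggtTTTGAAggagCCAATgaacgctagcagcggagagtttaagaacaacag
Cenpf (chr1:189688057-189688236, minus strand): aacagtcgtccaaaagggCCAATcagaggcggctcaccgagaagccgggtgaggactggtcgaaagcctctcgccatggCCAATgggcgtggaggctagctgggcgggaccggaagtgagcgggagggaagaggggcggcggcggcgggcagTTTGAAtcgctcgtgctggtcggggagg
Pttg1 (chr11:43425952-43426131, minus strand): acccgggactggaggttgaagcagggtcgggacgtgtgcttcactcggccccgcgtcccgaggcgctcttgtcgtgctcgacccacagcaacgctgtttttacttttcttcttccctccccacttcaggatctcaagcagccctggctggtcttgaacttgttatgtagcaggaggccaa
Aurka (chr2:172370541-172370720, minus strand): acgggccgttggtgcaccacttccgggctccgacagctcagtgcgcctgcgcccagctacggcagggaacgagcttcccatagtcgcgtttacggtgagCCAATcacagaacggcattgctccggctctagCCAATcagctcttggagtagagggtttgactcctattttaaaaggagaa
Kif23 (chr9:61946770-61946949, minus strand): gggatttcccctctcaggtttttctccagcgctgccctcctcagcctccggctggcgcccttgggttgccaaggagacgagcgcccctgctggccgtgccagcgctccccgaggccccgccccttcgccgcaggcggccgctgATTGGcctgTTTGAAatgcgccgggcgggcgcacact
Ccnb2 (chr9:70421525-70421704, minus strand): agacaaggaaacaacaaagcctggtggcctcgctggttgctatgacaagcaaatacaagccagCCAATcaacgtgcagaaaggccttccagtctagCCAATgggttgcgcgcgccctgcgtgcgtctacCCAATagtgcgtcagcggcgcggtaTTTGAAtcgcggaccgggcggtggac
In Top2a, Cdc20, Cenpf, Kif23 and Ccnb2 a TTTGAA match at or near the start had at least 1 CCAAT before it. Smc2 has its matches far upstream here, and a second TTTGAA that reaches past the end of the stretch. Ccnb1 shows 2 CCAAT matches and no TTTGAA in this stretch, the window of Pttg1 held neither, and Aurka shows 2 CCAAT matches, with a TTTGAA that lies just past the end of the stretch. TTTGAA was found in 4 of the 6 members with a window whose ratio rose, in both that fell and in 19 of the 26 that did not pass. Few members rose or fell, and whether its presence goes with their response was not tested. A match is a run of letters, not a site shown to be bound.

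Mitotic transcripts stayed close to their untreated level through 24 h of DB818, with arrays normalised by loess. The median log2 ratio of the 40 members, treated over untreated, was -0.0051 at 6 h, 0.046 at 12 h and 0.052 at 24 h, beside medians of 0.027, 0.025 and 0.028 over all genes measured. A log2 ratio of 0.32 or more in size means that the higher level is at least 25% above the lower. Of the members 1 passed that size at 6 h (Smc2), 0 at 12 h and 0 at 24 h, beside 2.52, 2.12 and 4.19% of all genes. The ratios of the members were spread with an SD of 0.118, 0.109 and 0.0932 at the 3 times, against 0.129, 0.137 and 0.149 for all genes. Repeated spots of 1 probe on the same array scattered with an SD of 0.0433, 0.0336 and 0.0510, and 24, 22 and 28 members lay within 2 such SDs of 0, beside 55.7, 46.7 and 58.9% of all genes. The main setting adds an offset of 50 to both channels. With an offset of 10, 2 members passed 0.32 at 6 h and 1 at 12 h, and with plain background subtraction 3 and 1 did. The share of all genes past that size was not counted in these 2 settings. With arrays centred on their median in place of loess, the members' median was 0.19, 0.17 and 0.18.

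**Figure D1:**
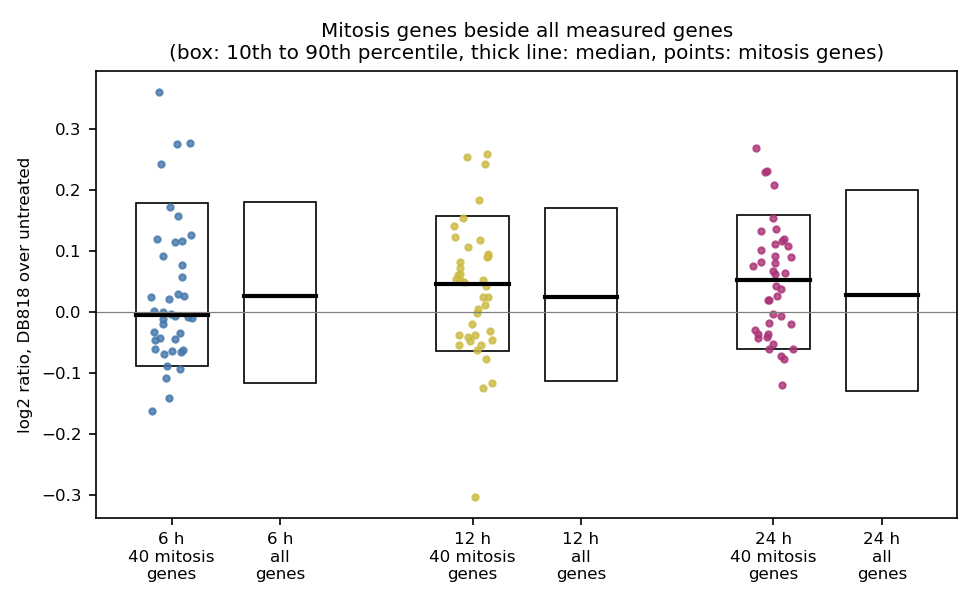
The vertical axis is the log2 ratio of DB818 over untreated cells on each array, with each of the 40 mitosis genes as a point, beside boxes for the mitosis genes and for all measured genes. The medians of the mitosis genes were -0.0051, 0.046 and 0.052 at 6, 12 and 24 h, and the boxes of both groups overlap over most of their length.

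With the 3 times treated as repeats, limma's test of the mean ratio against 0, adjusted by Benjamini-Hochberg over 10956 genes, found that 7 members rose and 2 fell. That is 17.5% of the members, where 20.1% of all genes rose, and 5.0%, where 7.86% of all genes fell, so the members were called about as often as other genes. The 7 that rose were Smc4, Top2a, Ccnb1, Smc2, Cenpf, Cdc20 and Pttg1, and the 2 that fell were Aurka, which turned to 0.28 with median centring, and Kif23. Values given for genes from here on are log2 ratios of DB818 over untreated cells, and averages are means over the 3 times. For 38 of the 40, all but Smc2 and Smc4, the 95% interval of the mean lay between -0.32 and 0.32, as it did for 93.3% of all genes. The ratio was above 0 on all 3 arrays for 13 members, below 0 on all 3 for 9 and of both signs for 18, while 41.1% of all genes were above 0 on all 3 and 21.0% below. A dye bias that is the same on every array, or 1 untreated RNA used on all 3, is not in the spread that this test uses. Much rests on the 12 h array, since without it 3 members rose (Ccnb1, Top2a and Smc4) and 0 fell, with 5.04% of all genes called in place of 27.9%. With the scanner's own processed ratios 3 members rose and 2 fell, 11.2% of all genes were called, and Kif23, Top2a and Smc4 were the calls shared with the main setting.

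**Figure D2:**
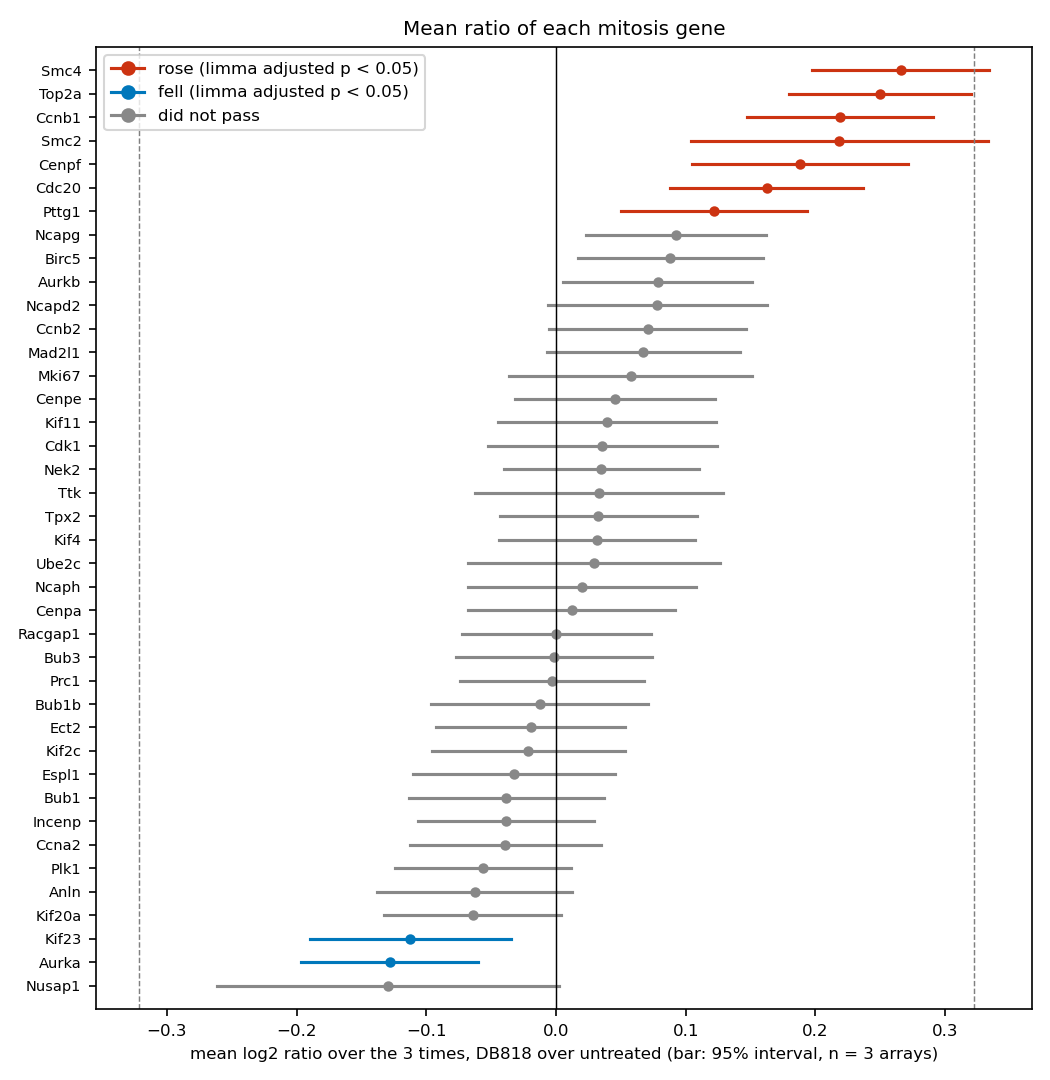
The mean log2 ratio of each of the 40 mitosis genes over the 3 times, DB818 over untreated, is given with its 95% interval from the limma fit (n = 3 arrays). The 7 genes that rose have means between 0.12 and 0.27, and the means of the 2 that fell are -0.13 (Aurka, 0.28 with median centring) and -0.11 (Kif23). Dashed lines mark -0.32 and 0.32.

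No member changed with time past the test. In limma's test of the slope of the ratio over log2 time, 0 members rose and 0 fell, with 1.79% of all genes rising and 1.26% falling. At an unadjusted p under 0.05 the slope passed for 3 of the 40 members and for 19.9% of all genes, and the lowest adjusted p of a member was 0.179, for Smc2. The change from 6 to 24 h, the ratio at 24 h minus that at 6 h, ran from -0.21 for Smc2 to 0.16 for Mki67, the antigen Ki-67 that coats mitotic chromosomes, with a median of 0.035. Of all genes 2.64% changed by 0.32 or more in size over that span, and no member did. With the brightest probe of each gene, Smc2 fell over time (slope -0.22, limma adjusted p = 0.0118). The main value of Smc2 averages 3 probes at 6 and 12 h and 4 at 24 h. The added probe is dim and read 0.061 at 24 h, so part of the change of Smc2 comes with a different set of probes.

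**Figure D3:**
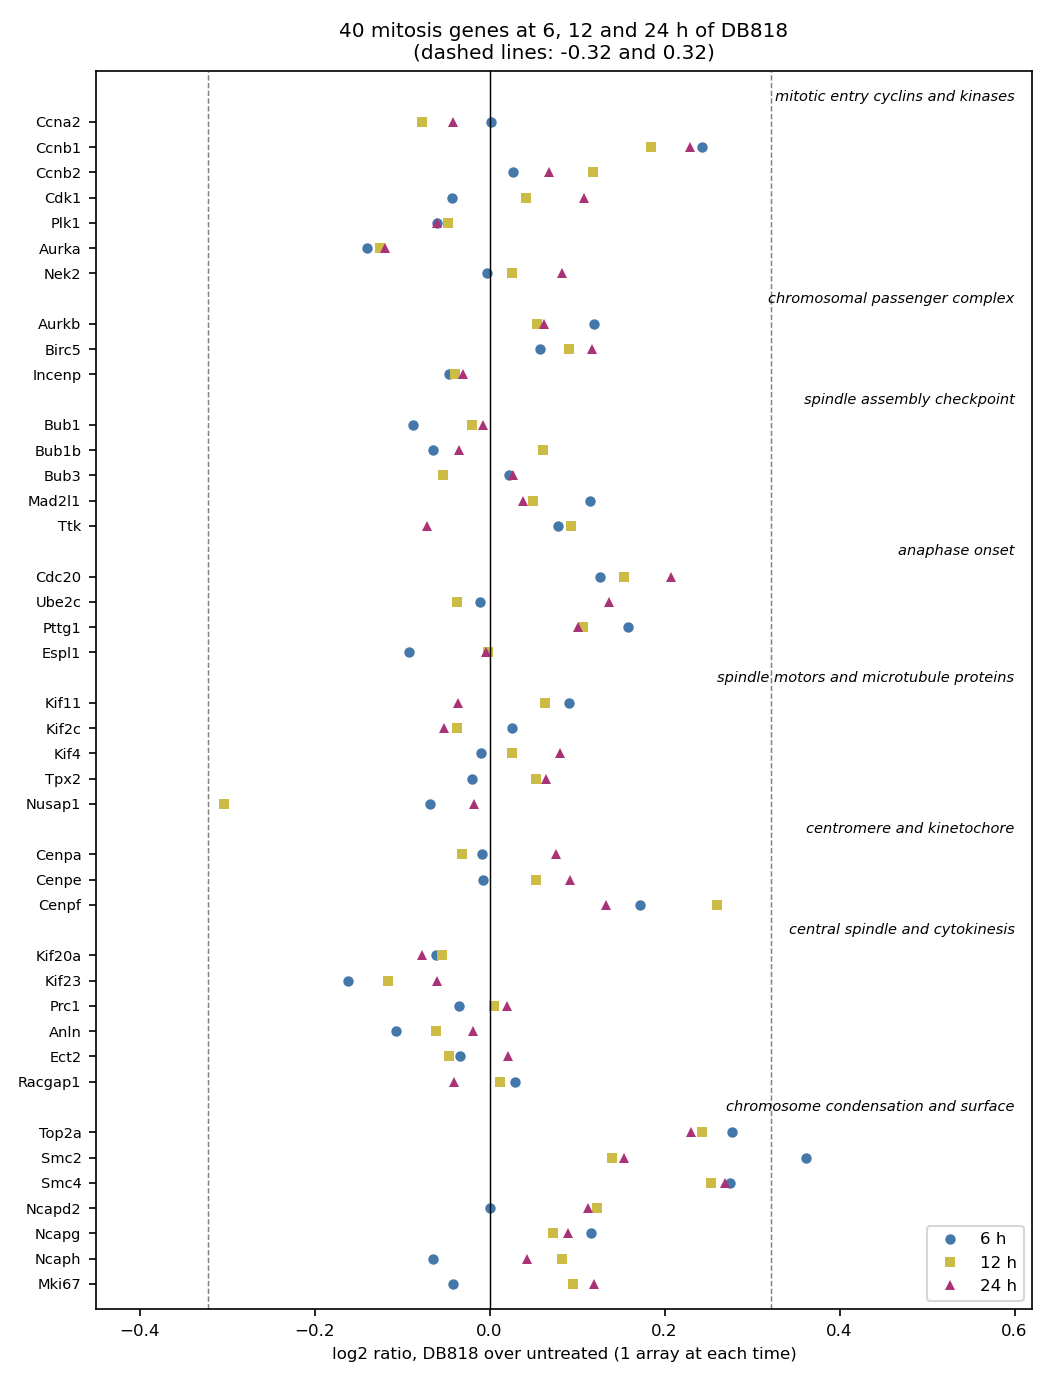
Each row is 1 of the 40 mitosis genes, ordered by role, with its log2 ratio of DB818 over untreated at 6, 12 and 24 h (1 array each). Smc2 at 6 h (0.36) is the point outside the dashed lines at -0.32 and 0.32. The 7 genes of chromosome condensation, as averages of their probes, are all above 0 at 24 h, where 25 of the 40 members are.

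Of the 7 genes of chromosome condensation 3 rose, where 20.1% of all genes rose, and 0 fell. Their median mean ratio was the highest of the 8 role groups with loess, at 0.093, beside 0.029 over all genes. With median centring it was 0.21, below those of the passenger complex (0.43), anaphase onset (0.37) and mitotic entry (0.31). Smc4, which with Smc2 forms the ATPase core of both condensin complexes, had log2 ratios of 0.27, 0.25 and 0.27 at 6, 12 and 24 h. The 3 arrays lie close together, and the mean was 0.27 ± 0.029 (SE, n = 3 arrays, limma adjusted p = 0.0042). Smc2 had 0.36, 0.14 and 0.15, and its mean of 0.22 ± 0.048 also passed (limma adjusted p = 0.0190). Its value at 6 h stood apart from the later ones, and without the 12 h array its mean of 0.26 no longer passed (limma adjusted p = 0.058), nor did its mean of 0.13 with the scanner's ratios (limma adjusted p = 0.308). Top2a, the topoisomerase that untangles sister chromatids, had 0.28, 0.24 and 0.23, with a mean of 0.25 ± 0.030 (SE, n = 3 arrays, limma adjusted p = 0.0047). Top2a was the member that passed in each of the 12 other settings tried. The subunits specific to condensin I gave lower values with loess. Ncapg averaged 0.093 (limma adjusted p = 0.0561), Ncapd2 0.078 and Ncaph 0.020, and Mki67 averaged 0.058, none of them past the test. Ncapg rose past it with the scanner's ratios, with plain background subtraction and with an offset of 10. With array weights all 7 genes rose, where 38.2% of all genes did, and with median centring 6 rose, where 37.8% did. In the latter Mki67 averaged 0.42, Ncapd2 0.29, Ncapg 0.11 and Ncaph 0.012, beside 0.45 for Smc4, 0.21 for Smc2 and 0.20 for Top2a. With loess, and as averages of their probes, each of the 7 genes was above 0 at 24 h, where 25 of all 40 members and 6915 of 11565 genes were. The brightest probe of Ncapd2 (-0.057) and of Ncapg (-0.084) was below 0 then, and their other measured probes were above it.

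Probes of these genes did not give the same size. On the 6 h array the 2 probes of Smc4 read 0.029 and 0.52, the brighter one giving the lower ratio. With the brightest probe alone Smc4 averaged 0.069 and did not pass (limma adjusted p = 0.156). The 3 probes of Smc2 measured on all arrays ran from 0.027 to 0.70 at 6 h, and those of Top2a read 0.11 and 0.45. Ncapg, a condensin I subunit, had 1 probe at -0.15 and 1 at 0.38 at 6 h, a disagreement in sign that held at 12 and 24 h. Among the 16 members with several probes on all arrays, the means of the probes shared a sign in 9 and did not in 7, and the median range between them was 0.18, larger than most of the mean ratios. In Ccnb1 all 3 probes were above 0 at each time, and in Kif23 both measured probes were below 0. A further Kif23 probe, not well above background on any array, read 0.14, 0.040 and 0.034. Which transcripts each probe reads was not tested.

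**Figure D4:**
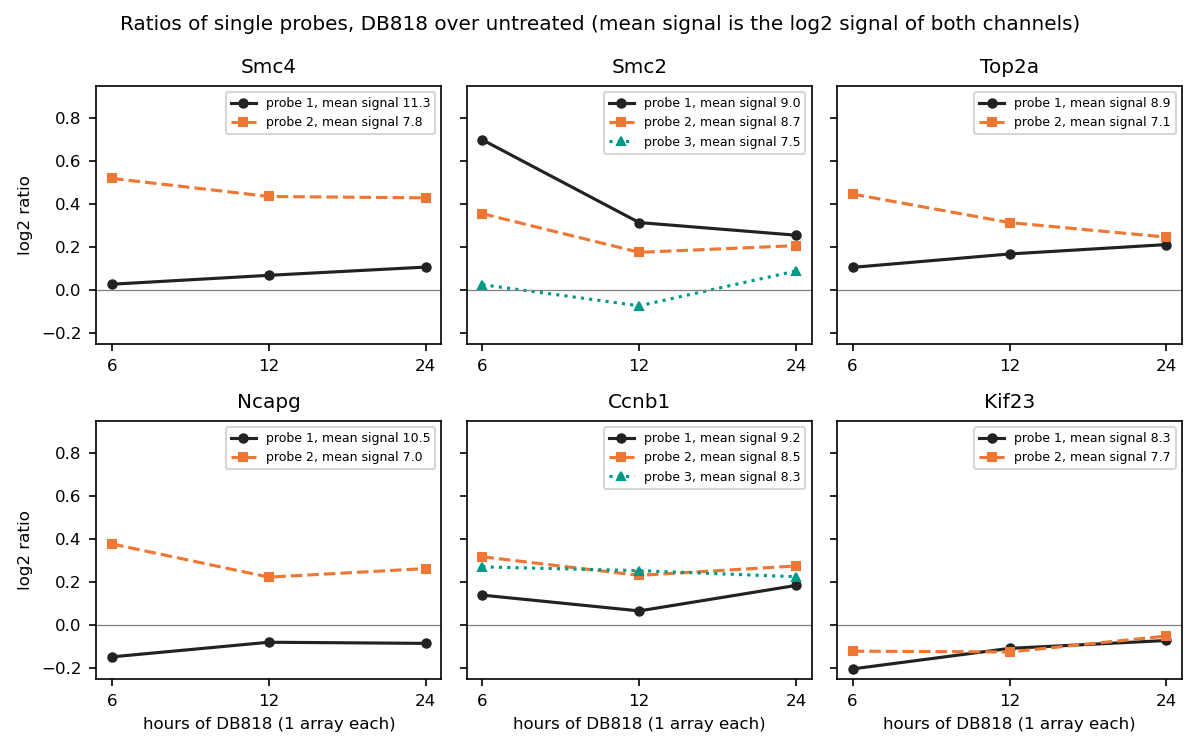
Each line is 1 probe measured on all 3 arrays, with the log2 ratio of DB818 over untreated on the vertical axis and the hours of DB818 on the horizontal axis; the legend gives the mean log2 signal of both channels. Probes of Smc2 run from 0.027 to 0.70 at 6 h and those of Smc4 and Ncapg lie apart at each time, while those of Kif23 stay below 0 together.

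Among the cyclins and kinases of mitotic entry 1 of 7 rose and 1 fell, where 20.1 and 7.86% of all genes did. With median centring 7 rose and 0 fell, where 37.8 and 40.9% of all genes did. With the scanner's ratios 0 rose and 0 fell, where 5.39 and 5.84% of all genes did. Ccnb1, the cyclin whose accumulation with Cdk1 drives entry, had 0.24, 0.18 and 0.23 at 6, 12 and 24 h, a mean of 0.22 ± 0.030 (SE, n = 3 arrays, limma adjusted p = 0.0059). All 3 arrays were above 0, and the call was lost with the scanner's processed ratios alone (0.20, limma adjusted p = 0.0502). Aurka, the kinase of centrosome maturation and spindle poles, had -0.14, -0.12 and -0.12. Its mean of -0.13 ± 0.029 (SE, n = 3 arrays, limma adjusted p = 0.0198) was below 0 on every array, but turned to 0.28 when arrays were centred on their median without loess, and without the 12 h array it did not pass (limma adjusted p = 0.155). The partners of these genes did not pass: Ccnb2, the other B-type cyclin, averaged 0.071, Cdk1 0.036, Nek2, a centrosome kinase, 0.035, Ccna2, the A-type cyclin of S and G2, -0.039, and Plk1, the polo-like kinase, -0.056. The means of Ccna2 and Plk1 turned to 0.31 and 0.32 with median centring.

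Of the 4 genes of anaphase onset 2 rose and 0 fell, where 20.1 and 7.86% of all genes did. Cdc20, the activator of the anaphase promoting complex, had 0.13, 0.15 and 0.21 at 6, 12 and 24 h, all above 0 and with the highest value at 24 h, but its slope did not pass (limma adjusted p = 0.526). Its mean was 0.16 ± 0.031 (SE, n = 3 arrays, limma adjusted p = 0.0131). Pttg1, the securin that restrains separase, had 0.16, 0.11 and 0.10, with a mean of 0.12 ± 0.030 (SE, n = 3 arrays, limma adjusted p = 0.0269). Leaving out any 1 array ended the call of Pttg1, with limma adjusted p between 0.0531 and 0.161, and leaving out the 12 h array did so for Cdc20 (limma adjusted p = 0.0983). Ube2c, the ubiquitin-conjugating enzyme of that complex, had -0.011 and -0.037 at 6 and 12 h and 0.14 at 24 h, and Espl1, separase itself, averaged -0.033, neither past the test.

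At the centromere and kinetochore 1 of 3 members rose, where 20.1% of all genes did. Cenpf, a large kinetochore protein that also binds microtubules, had 0.17, 0.26 and 0.13, with a mean of 0.19 ± 0.035 (SE, n = 3 arrays, limma adjusted p = 0.0117). The lower value at 24 h comes with a second, dimmer probe that was well above background on that array alone. With its other probe, measured on all 3 arrays, Cenpf had 0.17, 0.26 and 0.34 and a mean of 0.26 (limma adjusted p = 0.0065), a setting chosen after seeing the data. The call was lost with no filter on dim probes (0.10, limma adjusted p = 0.0523), with the scanner's ratios (0.16, limma adjusted p = 0.111) and without the 12 h array (0.15, limma adjusted p = 0.112). Cenpe, the kinetochore kinesin, had -0.0071, 0.053 and 0.092, and Cenpa, the histone H3 variant of centromeres, averaged 0.012, neither past the test.

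The ratios do not show how each channel moved between arrays. For Cenpa the signal after quantile normalisation of the channels, in log2 units, was 8.15, 8.75 and 8.99 in DB818 cells and 8.25, 8.83 and 8.95 in untreated cells on the 6, 12 and 24 h arrays. Both channels were lowest on the 6 h array and moved together, so the ratio stayed near 0. For the 40 members the range of the untreated signal over the 3 arrays had a median of 0.146, which is larger than the mean ratio of most of them, and Cenpa had the highest at 0.706. The untreated signals of Smc4, by contrast, were 9.47, 9.43 and 9.48, against 9.71, 9.65 and 9.71 in DB818 cells, so that the groups did not overlap. Aurka had 11.7 on all 3 arrays in DB818 cells, against 11.8 in untreated cells on each.

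**Figure D5:**
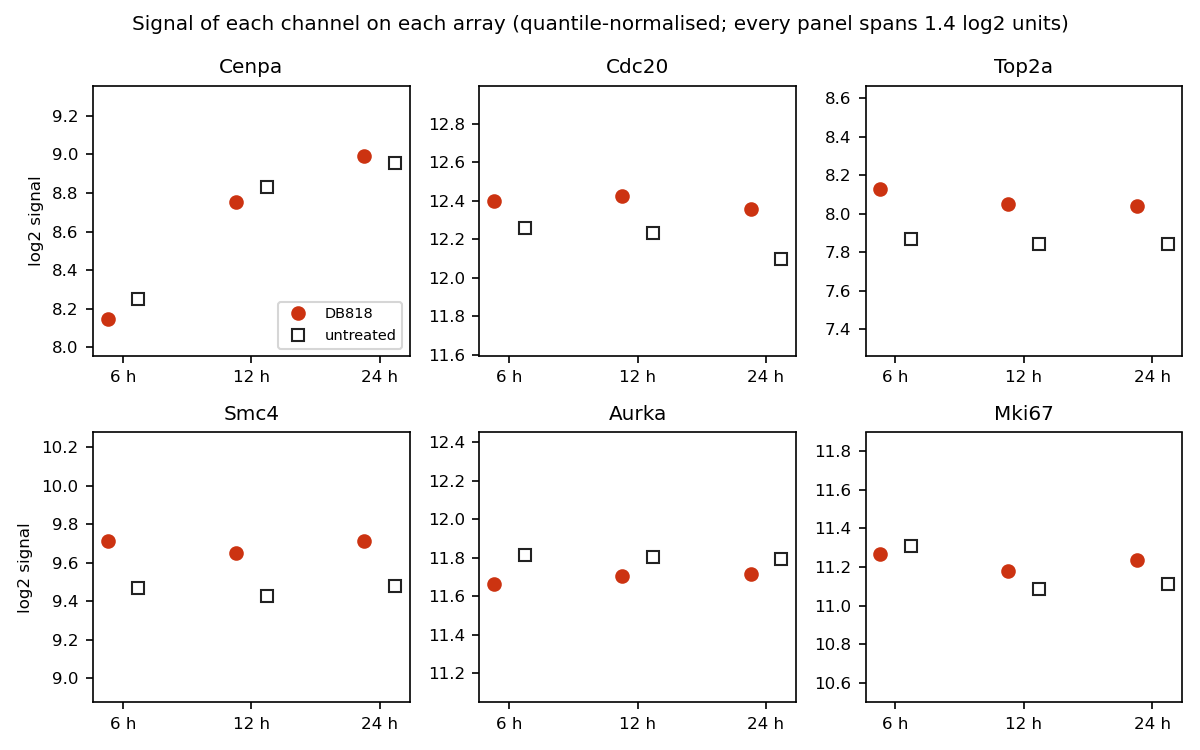
The vertical axis is the log2 signal of each channel after quantile normalisation, DB818 (filled) left of untreated (open), on the 6, 12 and 24 h arrays. In Cenpa both channels are lowest at 6 h (8.15 and 8.25), while in Smc4 and Top2a the DB818 points lie above the untreated ones on each array.

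In the central spindle and cytokinesis group 0 of 6 rose and 1 fell, where 20.1 and 7.86% of all genes did. The median mean ratio of the group was -0.041. Kif23, the kinesin of the centralspindlin complex, had -0.16, -0.12 and -0.060 at 6, 12 and 24 h, all below 0, with a mean of -0.11 ± 0.033 (SE, n = 3 arrays, limma adjusted p = 0.0431). It did not pass without the 6 h array (limma adjusted p = 0.0992) or without the 12 h array (limma adjusted p = 0.235). The call was also lost with plain background subtraction (limma adjusted p = 0.0536) and with no filter on dim probes (-0.052, limma adjusted p = 0.212). Racgap1, its partner in centralspindlin, averaged 0.00030, against -0.20 with median centring. Kif20a, a kinesin that brings the passenger complex to the midzone, had -0.062, -0.054 and -0.077, which did not pass (limma adjusted p = 0.135) and turned to a mean of 0.26 with median centring. Anln, the anillin of the contractile ring, averaged -0.063, against -0.69 with median centring. Anln fell past the test in that setting, with the brightest probe and with array weights, where 40.9, 9.28 and 19.4% of all genes fell. Ect2, the exchange factor that activates RhoA there, averaged -0.020, and Prc1, the bundler of midzone microtubules, -0.0031, against 0.037 and 0.32 with median centring. The 24 h value of Ect2 (0.021) averages a dim probe used on that array alone (0.085) with another at -0.044.

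The spindle checkpoint, the chromosomal passenger complex and the spindle motors held no member past the test with loess. With median centring all 3 passenger genes rose, 2 checkpoint genes rose and 2 fell, and 1 spindle gene rose and 3 fell. Of all genes 37.8% rose and 40.9% fell in that setting. With array weights 2 passenger and 2 checkpoint genes rose and 1 spindle gene fell, where 38.2% of all genes rose and 19.4% fell. With the scanner's ratios 1 spindle gene, Kif2c, fell, where 5.84% of all genes did. Among the 5 checkpoint genes Mad2l1, which inhibits Cdc20, had 0.12, 0.049 and 0.038, and the kinase Bub1 had -0.088, -0.020 and -0.0070. Bub1b (BubR1), Bub3 and the kinase Ttk (Mps1) averaged -0.013, -0.0015 and 0.033, and with median centring Bub1 averaged 0.14, Bub1b 0.096 and Ttk -0.68. In the passenger complex Birc5 (survivin) had 0.057, 0.090 and 0.12, Aurkb, its kinase, 0.12, 0.054 and 0.062, and Incenp, its scaffold, averaged -0.039, against 0.43 with median centring. Birc5 and Aurkb were above 0 on each array, with limma adjusted p of 0.0689 and 0.0984. Among the spindle genes Kif11, the motor that pushes the poles apart, had 0.091, 0.063 and -0.036, with a mean that turned to -0.14 with median centring, and Nusap1, a microtubule bundler, -0.068, -0.30 and -0.018. The low value of Nusap1 at 12 h comes with a dim probe at -0.47 beside another at -0.13, and its mean of -0.13 ± 0.056 did not pass (SE, n = 3 arrays, limma adjusted p = 0.122). Without the 12 h array that mean was -0.043, and with the scanner's ratios the 12 h value was -1.06. Kif4, Tpx2 and Kif2c averaged 0.032, 0.033 and -0.021.

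Other genes of mitosis, listed from general knowledge, gave a similar picture with a somewhat higher count. Of 114 measured, 32 rose (28.1%) and 5 fell (4.39%), beside 20.1 and 7.86% of all genes, and their median mean ratio was 0.048. The counts were 8 and 1 without the 12 h array, 12 and 4 with the scanner's ratios, and 48 and 33 with median centring. The matching shares of all genes were 3.73 and 1.31%, 5.39 and 5.84%, and 37.8 and 40.9%. Both measured subunits specific to condensin II rose: Ncapg2 had 0.22, 0.26 and 0.27 at the 3 times and passed with a mean of 0.25 ± 0.030 (limma adjusted p = 0.0047), and Ncapd3 averaged 0.22 ± 0.034 (limma adjusted p = 0.0074). Of these Ncapg2 also passed without the 12 h array and with the scanner's ratios.

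Of 24 further spindle, centrosome and kinesin genes 8 rose and 1, Ckap2l, fell, against 6 and 10 with median centring. Over all genes 20.1% rose and 7.86% fell with loess, against 37.8 and 40.9% with median centring. Arl6ip1, a membrane protein of the endoplasmic reticulum, averaged 0.31, Ckap5, a microtubule polymerase, 0.29, and Kif18b, a kinesin of astral microtubules, 0.23. With median centring Ckap5 and Kif18b averaged 0.037 and 0.070 and did not pass. Of 20 inner centromere genes 6 rose, with Cenps at 0.22 and Cdca8 (borealin, of the passenger complex) at 0.19, and Cenpb, which binds centromeric DNA, fell, at a mean of -0.23. Of 19 outer kinetochore and checkpoint genes 4 rose and 2 fell. Knl1, the scaffold that recruits Bub1, averaged 0.24 but -0.050 with median centring, Kntc1 averaged 0.17 and Spc24 0.16, and Pmf1 and Nuf2 fell at -0.15 and -0.12 but turned to 0.097 and 0.10 with median centring.

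Of 15 genes of the anaphase promoting complex 3 rose, where 20.1% of all genes did. Cdc27 and Cdc16, both scaffold subunits, averaged 0.29 and 0.23, and Anapc1 averaged 0.13 but -0.012 with median centring, while Anapc13 fell at -0.12 but turned to 0.33 with it. Of 15 cohesin genes 4 rose and 0 fell. Sgo2a, a protector of centromeric cohesin, averaged 0.18, and Pds5b and Smc3 averaged 0.13 each but -0.13 and -0.037 with median centring. Of 19 regulators of entry and mitotic transcription 5 rose and 0 fell, among them Cdc25a, the phosphatase that activates Cdk complexes, at 0.24, Cks2, which binds them, at 0.22, and Pkmyt1, a kinase that inhibits Cdk1, at 0.18. Without the 12 h array the counts of rises in these 3 lists were 2, 1 and 0, where 3.73% of all genes rose.

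Genes of other cell cycle steps moved both ways on the same arrays. Of 37 DNA replication genes 9 rose and 6 fell, where 20.1 and 7.86% of all genes did, with a median mean ratio of 0.012. With median centring 28 rose and 5 fell, where 37.8 and 40.9% of all genes did, and the median was 0.29. Pola1, the catalytic subunit of DNA polymerase alpha, averaged 0.25, while Mcm6, of the replicative helicase, averaged -0.24 and Tk1, a thymidine kinase, -0.20, both of which turned to above 0 with median centring (0.35 and 0.11). Of 18 G1 genes 5 rose and 2 fell. Ccnd2, a D-type cyclin, averaged 0.28, the transcription factor E2f1 0.25, and Cdk4, the partner of D-type cyclins, -0.24, against 0.0037 with median centring. Without the 12 h array 0 replication genes passed in either direction, and 1 G1 gene rose and 1 fell. Of all genes 3.73% rose and 1.31% fell in that setting.

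The line was checked against its markers. All 11 myeloid progenitor markers on the array were well above background on each array, whereas 0 of 5 B cell and 0 of 5 fibroblast markers were on any, and of the erythroid, T cell and megakaryocyte markers at most 2 of a list were on any array. Of the 11 myeloid markers 4 rose and 5 fell, where 20.1 and 7.86% of all genes did. The integrin Itgam averaged 0.38, and 2 granule enzymes of neutrophils, the elastase Elane and the peroxidase Mpo, averaged -0.62 and -0.67. With median centring Elane and Mpo stood at -0.19 and -0.17, and Mpo did not pass there or with the scanner's ratios. Their part in the mitotic ratios was not tested. The members are brighter than most genes, with a median signal at the 66.8th percentile, and with median centring the ratio followed brightness: the brightest 10% of genes stood at 0.43, 0.37 and 0.43 and the dimmest 10% at -0.69, -0.64 and -0.68 at 6, 12 and 24 h. In that setting the mean of 14 members turned in sign, Aurka being the one of them past the test with loess, and 10 of the 14 passed the test. In all 26 members rose and 8 fell, and 37.8% of all genes rose and 40.9% fell.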

How the data were processed

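Per the submitters' processing notes, the authors used Agilent Feature Extraction 9.1.3.1 to read the arrays. The deposited scanner files hold linear intensity and background values for both channels, per the file headers. The deposited log10 ratio, Cy5 over Cy3 per the file headers, was used as an alternative, and the deposited value table held the same numbers (largest difference 0). Mean foreground and median background were corrected with normexp (offset 50) and each array by loess (limma 3.58.1 under R 4.3.3), leaving out control and outlier spots. A gene's value, a log2 ratio computed from the deposited intensity, averages its unsaturated probes that were well above background in Cy5 and Cy3 (10956 genes on all arrays). Single times have no test. The mean over the times (2 residual degrees of freedom, prior 4.82) and the slope over log2 time (1 residual, prior 8.37) were tested with limma's eBayes and Benjamini-Hochberg at 0.05. Nothing says that the cultures were separate, so p-values may measure technical spread. Values at every time are given for members past a test or past 0.32 in size at a time, or the 2 with the largest mean size in role groups with fewer than 2 of these. In each other list up to 3 genes past the test are named by the size of their mean. In the lists of other mitosis genes every gene that fell is named too. Members and lists were chosen with earlier results of these data known. Python 3.11.15 and matplotlib 3.10.9 made the summaries and figures.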

Additional observations from a re-analysis of the deposited data

How the results depend on the processing

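Each of the 9 calls among the mitosis genes was recomputed in 12 other settings. Top2a passed in all 12, Ccnb1 and Smc4 in 11, Cdc20 and Smc2 in 10, Cenpf in 9, Aurka and Kif23 in 8 and Pttg1 in 6. Median centring turned the sign of 14 of the 40 means, 10 of them then past the test. Among the genes given at each time these were Aurka at 0.28, Bub1 at 0.14, Kif11 at -0.14 and Kif20a at 0.26, and Cenpe, which did not pass. The others past the test were Ccna2, Plk1, Incenp, Ttk, Prc1 and Racgap1.

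Against 7 members that rose and 2 that fell, the counts were 3 and 2 with the scanner's ratios, 26 and 8 with median centring and 16 and 6 with array weights. The count that fell was 1 with plain subtraction, with an offset of 10 and with no filter on dim probes. Leaving out 1 array gave 3 to 7 rises and 0 to 2 falls. Over all genes, 2199 rises and 861 falls became 590 rises with the scanner's ratios, 4140 and 4483 with median centring, 4188 and 2125 with array weights, and 409 to 2296 rises and 143 to 957 falls with 1 array left out. The slope called 196 genes up and 138 down, against 0 and 0 with the scanner's ratios, 71 and 48 with subtraction, 7 and 1 with an offset of 10, 45 and 22 with median centring, 71 and 58 with no filter and 337 and 278 with the brightest probe. It called 213 down with probes measured on all 3 arrays, an alternative chosen after seeing the data. Of members, 1 fell in slope with the brightest probe.

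The members' median ratio was 0.19, 0.17 and 0.18 at 6, 12 and 24 h with median centring. At 12 h it was -0.017 with the scanner's ratios and 0.0052 with the brightest probe. Members past a log2 ratio of 0.32 in size at 6, 12 and 24 h numbered 3, 3 and 2 with the scanner's ratios and 16, 12 and 15 with median centring. They numbered 3 at 6 h and 1 at 12 h with subtraction, 2 and 1 with an offset of 10, and 1 at 24 h with the brightest probe and with probes measured on all 3 arrays. The share of all genes past that size was not counted in these settings, so these counts cannot be read as particular to the members. The cause of the differences between settings was not tested.

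No paired analysis was possible because the labels give no replicate numbers to use as a block, beyond the pairing of treated and untreated RNA on 1 array that every ratio already holds. The 3 arrays limit the precision: half-widths of the members' 95% intervals had a median of 0.0752.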
